A study of Mus musculus with 10 samples.

Results

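The genes described here are 10 members of bone morphogenetic protein (BMP) signalling and of the Id family, matched by gene symbol among the 48476 genes of the series' count table. They are the ligand gene Bmp4, the protease gene Bmp1, the antagonist gene Grem1 and the receptor genes Bmpr1a and Bmpr2. The others are the transducer gene Smad1, the inhibitory SMAD gene Smad6, and the target genes Id1, Id2 and Id3. All 10 were present once. The choice used the symbols, but it was made with earlier results of these data known.

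RNA was sequenced from mouse embryonic fibroblasts (MEFs) of E13.5 embryos of the cross CBA/CaJ X C57BL/6J, which the study describes as carrying an Oct4-GFP reporter. In both arms the cells received retroviral Oct4, Klf4 and Sox2 (OKS), packaged in PlatE cells, and were grown in iCD1 medium. The control arm, OKS+DR, received the red fluorescent protein DsRed in addition, and the other arm, OKS+FoxO6, received the forkhead factor FoxO6. Each arm gave 1 library on each of days 0, 1, 3, 5 and 7, so 10 libraries in all, and the question of the design is how added FoxO6 changes the course of reprogramming. A difference on a single day therefore has no replicate check, and the 5 days of an arm may share 1 infected culture, so that a p-value over the days describes these 2 time courses. The cells of a day are a mixture of fibroblasts and cells at various stages of reprogramming, and in bulk RNA a change in the number of cells of a type cannot be told apart from a change of RNA per cell.

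BMP ligands such as BMP4 are secreted dimers that bring together type I receptors (BMPR1A) and type II receptors (BMPR2) on the cell surface. The type II receptor phosphorylates the type I receptor, which phosphorylates SMAD1, SMAD5 and SMAD9, and these enter the nucleus with SMAD4. Id genes are their best known direct targets, and Id proteins lack a DNA-binding domain and hold basic helix-loop-helix (bHLH) factors away from DNA. SMAD6 is an inhibitory SMAD, and GREM1 is a secreted protein that binds BMP ligands and keeps them from the receptors. BMP1, despite its name, is a metalloprotease that processes procollagens and also cleaves the BMP antagonist chordin. In mouse pluripotent cells the BMP4 and Id axis is known for its part in self-renewal with LIF, and in fibroblasts BMP signalling is known to favour the epithelial transition early in reprogramming.

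The members spread over 7 chromosomes (GRCm38, gene bounds of GENCODE M21). Bmp1 lies on chr14:70474558-70520234, Bmp4 on chr14:46383520-46390669, Bmpr1a on chr14:34410734-34503341, Bmpr2 on chr1:59763400-59879014, Id1 on chr2:152736251-152737410 and Id2 on chr12:25093799-25097140. Id3 lies on chr4:136143497-136145755, Smad1 on chr8:79338395-79399518, Smad6 on chr9:63953076-64022059 and Grem1 on chr2:113746164-113758646. Counts are per gene over all its exons. No gene that overlaps a member had more than 1 count in any library.

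Upstream sequence is shown for 3 of the 4 members that separated the arms below, Id2, Id3 and Grem1. It comes from RefSeq (GRCm38.p6), whose promoter table held 8 of the 10 members, with no entry for Bmp1 and Id1. The windows run from 250 bases before to 50 bases after the transcription start, and only bases before the start are printed. They were searched on both strands for GGCGCC, a GC box known from BMP-responsive elements, for CAGAC, the SMAD box (GTCTG on the other strand), and for GTAAACA, a forkhead site of the FoxO type (TGTTTAC on the other strand). The motifs do not overlap each other. Matches are in capitals. The Id2 stretch lies in an intron of a longer GENCODE transcript, both Id3 stretches lie in the first exon of another Id3 transcript, where they are shown as short pieces around each match, and the Grem1 stretch lies outside the exons of the gene.
Id2, chr12:25096254-25096342, minus strand: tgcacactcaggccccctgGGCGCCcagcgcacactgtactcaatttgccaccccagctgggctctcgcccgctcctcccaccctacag
Id3, chr4:136143645-136143669, plus strand: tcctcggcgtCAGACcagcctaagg
Id3, chr4:136143744-136143768, plus strand: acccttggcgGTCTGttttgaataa
Grem1, chr2:113758649-113758898, minus strand: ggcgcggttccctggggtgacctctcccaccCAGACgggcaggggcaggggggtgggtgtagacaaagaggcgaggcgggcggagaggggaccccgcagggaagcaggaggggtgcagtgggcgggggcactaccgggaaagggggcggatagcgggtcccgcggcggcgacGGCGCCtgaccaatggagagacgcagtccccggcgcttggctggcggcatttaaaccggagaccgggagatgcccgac

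Counted from the start site, the GC box began at base -231 in Id2 and at base -78 in Grem1, and Bmpr1a and Bmpr2 held it too, at bases -198 and -105. The SMAD box began at bases -167 and -68 in Id3 and at bases -219 and 18 in Grem1. The forkhead letters were in none of the 8 member windows. Among 32851 promoter windows of this length, 11.9% held the GC box, 49.6% a SMAD box and 3.65% the forkhead letters. A match of this kind is a description of the letters only.

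Library totals ran from 1208379 to 2225750 expected counts (median 1601151). Foxo6 itself had 1 to 4 counts in the OKS+DR libraries and 1743 to 3375 in the OKS+FoxO6 libraries, day 0 included. Whether day 0 was collected before or after infection is not given in the sources used here, so the day 0 libraries are the first point of each course and not a sample known to be uninfected. The summed level of 8 fibroblast markers was 8736 TPM (RSEM's level scaled for transcript length and library size) in OKS+DR and 7401 TPM in OKS+FoxO6 at day 0, and 2347 and 2506 TPM at day 7. A pair of libraries stood apart in how counts depended on transcript length. With genes split into 4 length classes of equal size, the median log2 deviation from the mean of the libraries was lower in the class of longest transcripts than in the class of shortest ones, with a difference of -0.42 in OKS+DR day 0 and -0.60 in OKS+FoxO6 day 7, while in the other 8 libraries it was between 0.03 and 0.22. For the arm shifts and the day 7 to day 0 changes of the members, the text says where the call changed without these libraries.

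Among the members, averaged over the 10 libraries, the level per length was highest for Id2 (72.9 TPM), followed by Bmp1 (51.0 TPM), Bmpr1a (44.8 TPM), Id1 (39.1 TPM), Id3 (25.8 TPM), Bmpr2 (23.9 TPM), Smad1 (23.2 TPM), Grem1 (20.2 TPM), Bmp4 (11.2 TPM) and Smad6 (3.66 TPM). The ranges of neighbours in this order overlapped throughout. Id2 ranged from 15.1 to 132 TPM and Id3 from 1.80 to 112 TPM.

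Id1, Id2 and Id3 were lower in OKS+FoxO6 than in OKS+DR on every day, and their shift over the 5 days passed the test. Grem1 was also lower over the course, but only through days 0 to 3. Bmpr2 and Smad1 stood higher in OKS+FoxO6 on days 0 to 5 without passing the test, and Bmp4, Bmp1 and Bmpr1a did not pass it either. The shift is the log2 fold change of OKS+FoxO6 against OKS+DR, from edgeR's quasi-likelihood test on the rounded expected counts with day as a factor, adjusted by the Benjamini-Hochberg method over all 10977 genes tested, with an adjusted p under 0.05 as the threshold. Of the 10 members 9 passed the filter on low counts, and Smad6 did not. Of these 9, 4 were called lower in OKS+FoxO6, where 7.13% of all genes tested were called lower, and 0 were called higher, where the share of all genes was 6.93%. At an unadjusted p under 0.05, 2 members stood higher (Bmpr2 and Smad1), and DESeq2 and limma each called 0 members higher at the adjusted threshold, while edgeR with no filter on low counts called both.

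Id1 encodes an inhibitor of bHLH factors and is a common readout of BMP activity. On days 0, 1, 3, 5 and 7 its level in OKS+DR was 62.1, 34.8, 63.7, 55.2 and 85.7 TPM. In OKS+FoxO6 it was 26.2, 12.6, 10.6, 14.7 and 25.6 TPM, so that the highest OKS+FoxO6 library stayed below the lowest OKS+DR library. These levels rest on 23 to 74 counts per library in OKS+DR and 9 to 26 in OKS+FoxO6. The shift was -1.77 (SE 0.24, adjusted p = 0.000966), or 3.42-fold lower. The ratio of CPM (counts per library total scaled with edgeR's TMM factors) was lowest on day 3, at 0.162 (95% Clopper-Pearson interval 0.0691 to 0.338, counting error only), and highest on day 0, at 0.394 (0.228 to 0.674). The counting interval stayed below 1 on 5 of 5 days.

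Id2, a second inhibitor of bHLH factors, was the most abundant Id gene in all 10 libraries. It had 90.9, 89.6, 124, 132 and 125 TPM on days 0, 1, 3, 5 and 7 in OKS+DR, from 71 to 147 counts per library. In OKS+FoxO6 it had 33.1, 15.1, 35.7, 44.1 and 40.6 TPM, from 15 to 54 counts, and the arms did not overlap. The shift was -1.78 (SE 0.18, adjusted p = 0.000164), or 3.42-fold lower. The CPM ratio was lowest on day 1, at 0.166 (0.0889 to 0.290), and between 0.284 and 0.357 on the other days, with a counting interval below 1 on 5 of 5 days.

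Id3, the other Id gene of the set, dropped to low levels early in the course. In OKS+DR it had 31.9, 4.34, 7.88, 44.4 and 112 TPM on days 0, 1, 3, 5 and 7. In OKS+FoxO6 it had 16.4, 1.80, 3.38, 12.0 and 23.9 TPM. Both arms thus held their lowest values on days 1 and 3 and their highest on day 7, and the arms overlapped across days although OKS+FoxO6 was the lower one on each of them. The shift was -1.55 (SE 0.30, adjusted p = 0.00638), or 2.94-fold lower, a call that was lost without a day term (adjusted p = 0.373). The libraries of days 1 and 3 held only 4 and 7 counts of Id3 in OKS+DR and 1 and 4 in OKS+FoxO6, so a difference was not detectable at this depth on these days, and the counting interval stayed below 1 on days 5 and 7 alone, where the CPM ratio was 0.264 (0.127 to 0.517) and 0.246 (0.155 to 0.378).

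**Figure D1:**
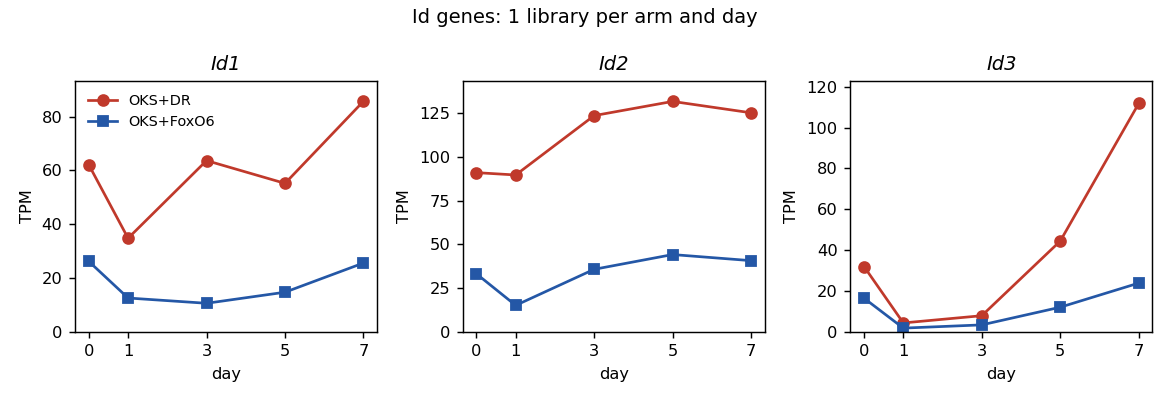
TPM of Id1, Id2 and Id3 (y axis, from 0) by day (x axis) in OKS+DR (red circles) and OKS+FoxO6 (blue squares), with 1 library per point and no error bars. The OKS+FoxO6 line runs below the OKS+DR line on all 5 days in each panel, and Id3 in OKS+DR ends at 112 TPM against 23.9 TPM in OKS+FoxO6.

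The summed level of the 3 Id genes was 185, 129, 195, 231 and 323 TPM on days 0, 1, 3, 5 and 7 in OKS+DR, and 75.7, 29.5, 49.7, 70.9 and 90.1 TPM in OKS+FoxO6. Every OKS+FoxO6 library held less summed Id RNA than every OKS+DR library. Id2 made up between 38.8% and 69.6% of the sum in OKS+DR and between 43.7% and 71.9% in OKS+FoxO6. With the trend with transcript length removed from each library, the length-adjusted fold of OKS+FoxO6 over OKS+DR was between 0.203 and 0.496 for Id1, between 0.186 and 0.391 for Id2 and between 0.213 and 0.780 for Id3 over the 5 days, and the 3 genes still passed the test with an offset for length (edgeR adjusted p between 0.000134 and 0.00812). Id1 and Id2 also passed without days 0 and 7, the days of the pair of libraries that stood apart, while Id3 then fell below the filter on low counts and was not tested.

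Bmp4, the ligand of the set, had few counts throughout. Its level in OKS+DR was 14.7, 12.4, 13.02, 2.79 and 4.58 TPM on days 0, 1, 3, 5 and 7, from 3 to 18 counts per library. In OKS+FoxO6 it was 25.1, 13.7, 7.18, 6.91 and 11.4 TPM, from 11 to 49 counts. OKS+FoxO6 was higher on 4 days and lower on day 3, and the arms overlapped. The shift was 0.44 (SE 0.34, adjusted p = 0.453). The counting interval left out 1 on day 7 alone, where the CPM ratio was 2.73 (1.06 to 7.84).

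Bmp1, the procollagen and chordin protease, declined in both arms. It went from 65.4 TPM at day 0 through 56.5, 47.8 and 36.7 to 33.9 TPM at day 7 in OKS+DR, and from 74.9 through 72.1, 59.1 and 38.5 to 25.1 TPM in OKS+FoxO6. The arms lay close together, with OKS+FoxO6 higher on days 0 to 5 and lower on day 7. The shift between the arms was 0.08 (SE 0.13, adjusted p = 0.740). Tested over both arms in the same fit, the log2 fold change of day 7 against day 0 was -1.21 (SE 0.21, adjusted p = 0.00184), a fall of 2.32-fold. Without the OKS+DR day 0 and OKS+FoxO6 day 7 libraries, which leaves 1 library at each of these days, the change was -0.89 (SE 0.27) and missed the threshold (adjusted p = 0.0703).

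Grem1, the secreted antagonist of BMP ligands, had the largest change from day 0 to day 7 of the 9 members tested. In OKS+DR it held 48.5, 55.6 and 35.9 TPM on days 0, 1 and 3 and 6.43 and 3.77 TPM on days 5 and 7. In OKS+FoxO6 it was at 19.8 TPM on day 0, followed by 11.6, 8.54, 7.24 and 4.37 TPM. The arms were far apart on days 0 to 3, when the OKS+DR libraries held 107 to 172 counts and the OKS+FoxO6 libraries 34 to 89, and met on days 5 and 7. The CPM ratio was 0.369 (0.278 to 0.487) on day 0, 0.206 (0.141 to 0.293) on day 1 and 0.234 (0.154 to 0.347) on day 3, and 1.08 (0.584 to 2.06) on day 5 and 1.27 (0.589 to 2.76) on day 7.

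The shift of Grem1 was -1.34 (SE 0.34, adjusted p = 0.0247), or 2.53-fold lower over the 5 days. This call was lost without day 0 (adjusted p = 0.0663), without day 1 (adjusted p = 0.127) and without day 3 (adjusted p = 0.131). It also missed the threshold in limma on log2(TPM + 1) (adjusted p = 0.158) and without a day term (adjusted p = 0.288), and it held without days 0 and 7 (adjusted p = 0.0146). Over both arms the log2 fold change of day 7 against day 0 was -2.95 (SE 0.57, adjusted p = 0.00366), a fall of 7.72-fold, and without the pair of libraries that stood apart it was -4.00 (SE 0.78, adjusted p = 0.0120). Within the arms the day 7 to day 0 CPM ratio was 0.0723 (0.0393 to 0.124) in OKS+DR and 0.249 (0.137 to 0.427) in OKS+FoxO6. The change of the arm difference along the days, tested as a product of arm and day, was 0.30 log2 per day (SE 0.11, adjusted p = 0.150).

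**Figure D2:**
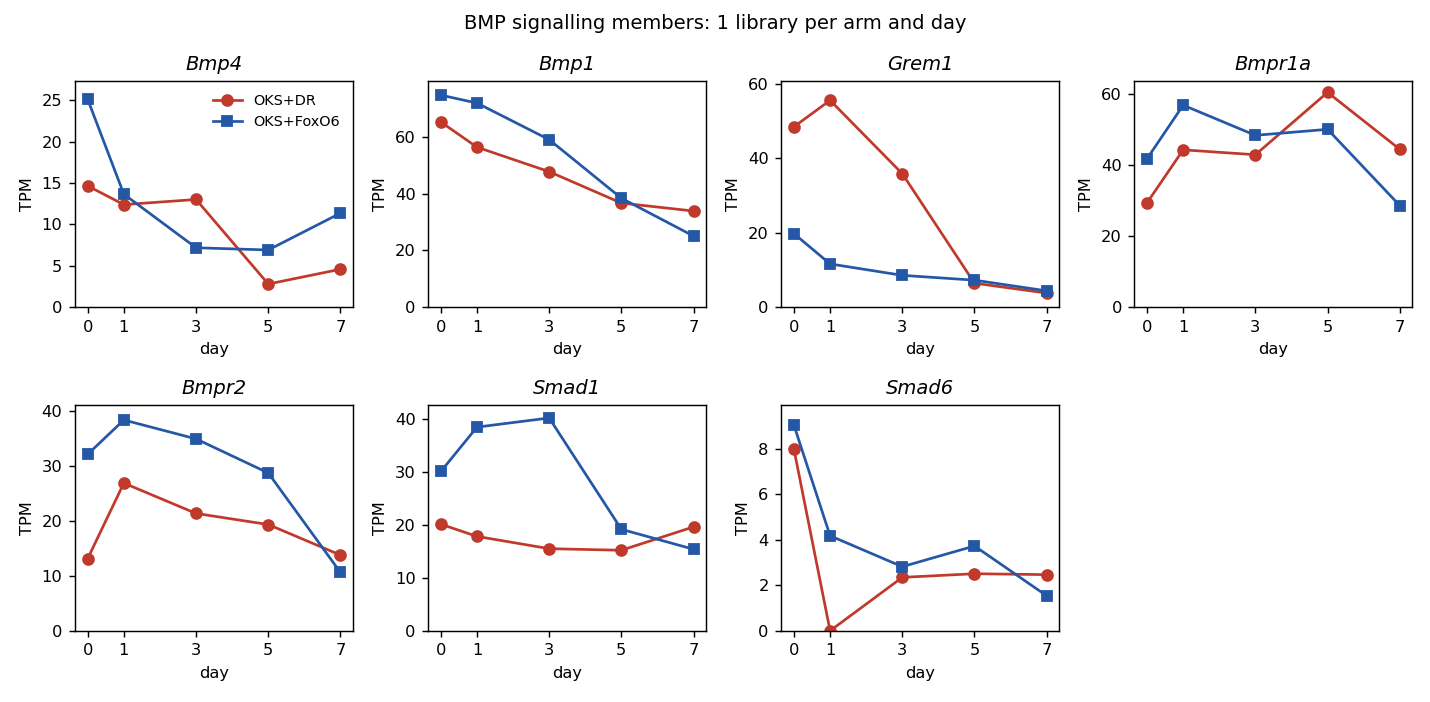
TPM (y axis, from 0, with its own scale in each panel) of Bmp4, Bmp1, Grem1, Bmpr1a, Bmpr2, Smad1 and Smad6 by day (x axis) in OKS+DR (red circles) and OKS+FoxO6 (blue squares), 1 library per point and no error bars. Grem1 differs between the arms on days 0 to 3 and meets on days 5 and 7, and the OKS+FoxO6 lines of Bmpr2 and Smad1 lie above those of OKS+DR until day 5.

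Bmpr1a encodes a type I receptor for BMP2 and BMP4. It had 29.4, 44.3, 42.9, 60.5 and 44.5 TPM on the 5 days in OKS+DR and 41.8, 56.9, 48.4, 50.1 and 28.6 TPM in OKS+FoxO6. OKS+FoxO6 was higher on days 0, 1 and 3 and lower on days 5 and 7. The counting interval of the CPM ratio left out 1 on all 5 days, with ratios from 1.38 (1.12 to 1.70) on day 1 to 0.706 (0.574 to 0.867) on day 7. The shift over the days was 0.06 (SE 0.16, adjusted p = 0.842). It took the opposite sign without day 0 and without day 1, the length-adjusted fold was 1.09, 1.36, 1.20, 0.790 and 0.896 on the 5 days, and the change along the days was -0.14 log2 per day (SE 0.04, adjusted p = 0.0909).

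Bmpr2 encodes the type II receptor and has a very long transcript, which matters beside the pair of libraries that stood apart. It had 13.2, 26.9, 21.4, 19.3 and 13.8 TPM in OKS+DR on days 0, 1, 3, 5 and 7, and 32.1, 38.4, 34.9, 28.7 and 10.6 TPM in OKS+FoxO6. The lowest OKS+DR value and the lowest OKS+FoxO6 value came from the 2 libraries with the deficit of long transcripts, day 0 and day 7. The CPM ratio was 2.22 (1.79 to 2.76) on day 0, 1.41 (1.20 to 1.65) on day 1, 1.61 (1.36 to 1.91) on day 3, 1.35 (1.12 to 1.63) on day 5 and 0.846 (0.665 to 1.07) on day 7. With the length trend removed, the fold was 1.59, 1.45, 1.58, 1.32 and 1.44, above 1 on all 5 days.

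The shift of Bmpr2 was 0.51 (SE 0.17, adjusted p = 0.0696). It passed the threshold without day 7 (0.68, SE 0.13, adjusted p = 0.00712), without days 0 and 7 (0.53, SE 0.12, adjusted p = 0.0189) and with the offset for length (0.56, SE 0.10, adjusted p = 0.00327). It did not pass without day 0 (0.36, SE 0.16, adjusted p = 0.184). It passed in 4 of 13 alternatives, and not in DESeq2 (adjusted p = 0.0813) or limma on log2(TPM + 1) (adjusted p = 0.241).

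Smad1 encodes a transducer that the activated BMP receptors phosphorylate. It stayed between 15.2 and 20.1 TPM in OKS+DR, with 20.1, 17.8, 15.5, 15.2 and 19.6 TPM on days 0, 1, 3, 5 and 7. In OKS+FoxO6 it had 30.1, 38.5, 40.2, 19.2 and 15.4 TPM. The difference lay on days 0 to 3, and on days 5 and 7 the arms were within counting error. The CPM ratio was 1.74 (1.13 to 2.77) on day 0, 2.15 (1.48 to 3.17) on day 1 and 2.50 (1.71 to 3.76) on day 3, then 1.20 (0.766 to 1.90) on day 5 and 0.928 (0.545 to 1.56) on day 7. The shift was 0.72 (SE 0.22, adjusted p = 0.0535). It passed the threshold without day 7 (0.89, SE 0.20, adjusted p = 0.0134), without days 0 and 7 (0.92, SE 0.24, adjusted p = 0.0281) and with the offset for length (0.70, SE 0.21, adjusted p = 0.0463). It passed in 4 of 13 alternatives, and not in DESeq2 (adjusted p = 0.104) or limma on log2(TPM + 1) (adjusted p = 0.218). Leaving out day 0, 1, 3 or 5 gave edgeR adjusted p-values between 0.088 and 0.217.

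Smad6 encodes the inhibitory SMAD and was the member with the fewest counts. It had 7.98, 0, 2.35, 2.51 and 2.47 TPM in OKS+DR and 9.04, 4.18, 2.82, 3.73 and 1.54 TPM in OKS+FoxO6. The highest value of each arm was at day 0, from 15 and 29 counts, and no other library had more than 11 counts. On day 1 OKS+DR had 0 counts and OKS+FoxO6 had 10, which gives a level at least 3.02-fold higher in OKS+FoxO6 when 3 counts are set as the floor of the OKS+DR library. The exact 95% counting interval of this ratio reached lower, to 2.03-fold. On the other 4 days the counting interval of the ratio included 1.

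**Figure D3:**
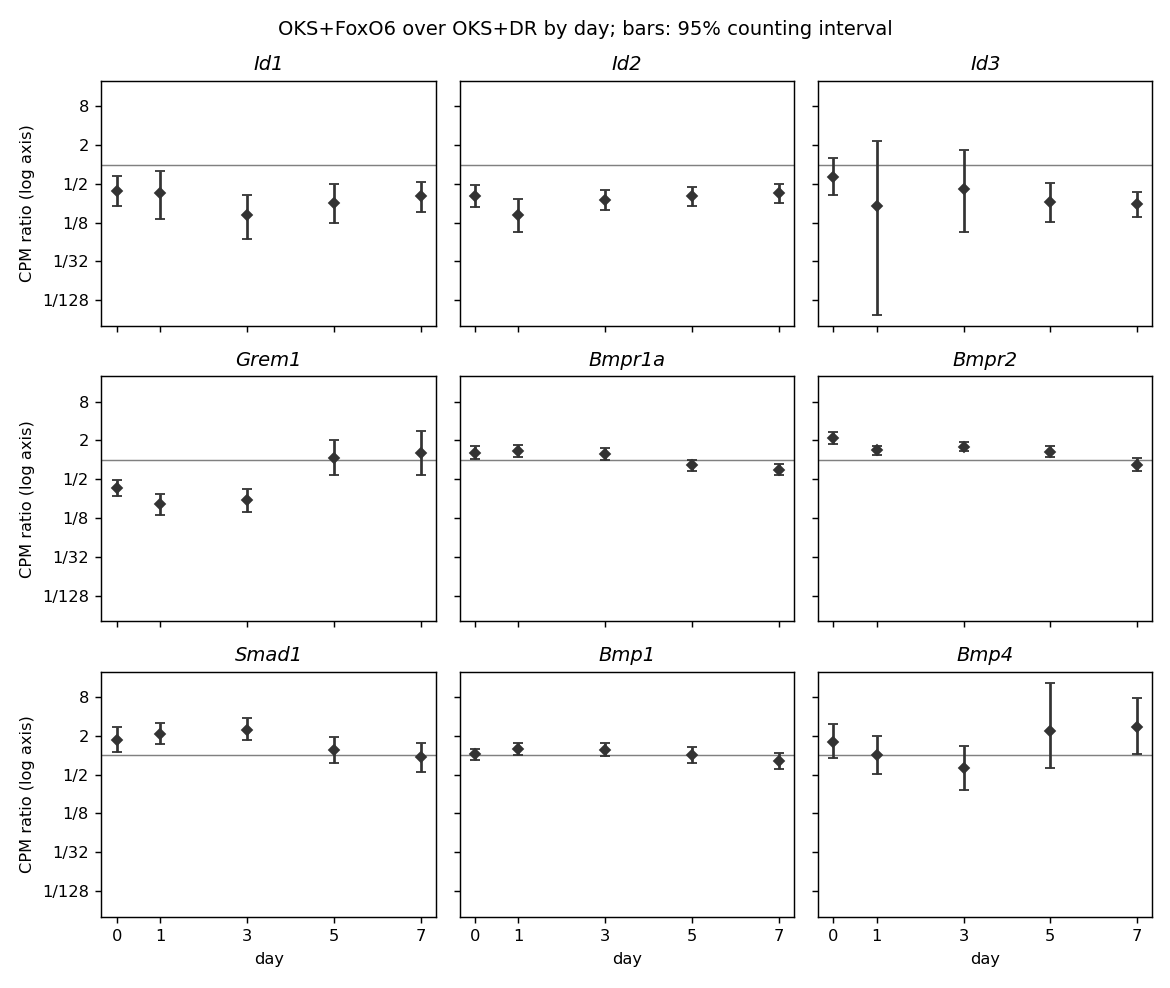
CPM ratio, OKS+FoxO6 over OKS+DR (y axis, log scale), by day (x axis) for 9 members, with Smad6 left out for its day without counts. Diamonds are the ratio of the 2 libraries of a day, bars are 95% Clopper-Pearson intervals that cover counting error only, and the grey line is a ratio of 1. Id1 and Id2 lie below the line with their bars on all 5 days, Grem1 on days 0 to 3, and Smad1 lies above it on days 0 to 3.

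The study used a fold change over 2 on TPM, and here the same fold was set on log2(TPM + 1), which understates the change of low genes. By this measure 4 of the 10 members were past 2-fold on day 0, where 16.7% of 14837 expressed genes were (mean level over the libraries 1 TPM or more). The count was 5 members on day 1 (17.3% of genes), 5 on day 3 (19.9%), 4 on day 5 (21.5%) and 4 on day 7 (24.5%). Id1 and Id2 were past it on all 5 days, always lower in OKS+FoxO6, and Id3 on days 3, 5 and 7. Id3 on day 1, at 4.34 against 1.80 TPM, was past 2-fold on TPM alone but not with the pseudocount of 1. Grem1 was past it on days 0, 1 and 3, also lower. The higher ones were Bmpr2 on day 0, Smad1 on days 1 and 3, Smad6 on day 1 and Bmp4 on days 5 and 7.

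Along the course, 3 of the 9 members tested changed with day, averaged over the arms (F test of the 4 day terms), where 19.6% of all genes did. This test does not ask whether the arms followed the same course. They were Id3 (adjusted p = 0.000442), Bmp1 (adjusted p = 0.00611) and Grem1 (adjusted p = 0.0107). At day 7 against day 0, 2 members were called lower (Bmp1 and Grem1, background 10.1%) and 1 higher (Id3, background 11.2%). Id3 rose by 1.44 (SE 0.39, adjusted p = 0.0218), or 2.71-fold. Within the arms its day 7 to day 0 CPM ratio was 4.32 (2.62 to 7.52) in OKS+DR and 1.64 (0.893 to 3.03) in OKS+FoxO6. The call of Id3 was lost in DESeq2 (adjusted p = 0.0917), in limma on log2(TPM + 1) (adjusted p = 0.101) and without the pair of libraries that stood apart (0.97, SE 0.62, adjusted p = 0.405). Without that pair, Grem1 alone of the members was called at day 7 against day 0, and the change of Id1 was -0.33 (SE 0.55, adjusted p = 0.784).

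Id1 and Id2 did not pass this test, with log2 fold changes of 0.23 (SE 0.35, adjusted p = 0.706) and 0.40 (SE 0.27, adjusted p = 0.357). The other members did not pass it either, with -1.43 for Bmp4 (adjusted p = 0.0697), -0.75 for Bmpr2 (adjusted p = 0.0768), -0.77 for Smad1 (adjusted p = 0.163) and 0.07 for Bmpr1a (adjusted p = 0.887). With the offset for length, Bmp4 and Bmpr2 passed it as well.

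A change of the arm difference along the days was called for 0 of 9 members in edgeR, where 1.98% of all genes were called. At an unadjusted p under 0.05 there were 3 members (Bmpr1a, Bmpr2 and Grem1), and DESeq2 and limma called 0 after adjustment. For Id1, Id2 and Id3 the change along the days was -0.04, 0.07 and -0.19 log2 per day, with adjusted p-values of 0.835, 0.612 and 0.298.

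Another 70 genes of the pathway, in 6 lists, were measured, and 34 of them passed the filter. Of these, 2 were called higher and 3 lower in OKS+FoxO6, beside 6.93% and 7.13% of all genes tested, and their median shift was -0.01, against -0.02 over all genes tested and 0.06 over the 9 members. At day 7 against day 0, 2 were called higher and 12 lower, beside 11.2% and 10.1% of all genes, with a median of -0.60 against 0.03 over all genes tested and -0.75 over the members. The day effect called 14 of the 34, beside 19.6% of all genes. Without days 0 and 7 the 5 arm calls held (adjusted p between 0.00212 and 0.0370), and without the pair of libraries that stood apart the day 7 calls of Rgma, Skil and Nbl1 were lost (adjusted p between 0.0531 and 0.0640). The lists are described by their counts, with no test of the list.

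Among 14 other ligand genes, 6 reached a mean of 1 TPM, 1 passed the filter (Bmp3, shift 0.04, SE 0.71, adjusted p = 0.978) and 0 were called. Bmp8a was higher in OKS+FoxO6 on all 5 days, though from at most 9 counts in a library. Of 9 other receptor and co-receptor genes 6 were tested. Eng, which encodes the co-receptor endoglin, was lower in OKS+FoxO6, with 30.6, 40.1, 31.8, 32.4 and 19.1 TPM in OKS+DR and 22.9, 36.2, 10.7, 12.1 and 16.3 TPM in OKS+FoxO6. Its shift was -0.82 (SE 0.19, adjusted p = 0.0168). The call was lost in limma on log2(TPM + 1) (adjusted p = 0.130) and on log2(TPM + 0.1) (adjusted p = 0.146), without a day term (adjusted p = 0.192) and without day 1, day 3 or day 5 (adjusted p between 0.0531 and 0.0897). Rgma, a glycolipid-anchored co-receptor, rose by 1.37 (SE 0.24, adjusted p = 0.00187) from day 0 to day 7.

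Of 10 other transducers and their inhibitors 8 were tested. Smurf2, a ubiquitin ligase that targets SMADs and receptors, was higher in OKS+FoxO6, with 51.3, 46.3, 59.3, 34.6 and 21.1 TPM against 29.0, 32.9, 18.9, 23.6 and 24.7 TPM in OKS+DR. Its shift was 0.77 (SE 0.17, adjusted p = 0.0116). The call was lost in limma on log2(TPM + 1) (adjusted p = 0.157) and on log2(TPM + 0.1) (adjusted p = 0.174), without a day term (adjusted p = 0.0953) and without day 3 (adjusted p = 0.0576). Its level per length was higher on days 0 to 5 and lower on day 7, the library with the deficit of long transcripts. The inhibitory Smad7 (-2.10, SE 0.32, adjusted p = 0.000711), the ubiquitin ligase gene Smurf1 (-1.02, SE 0.21, adjusted p = 0.00443) and the corepressor gene Skil (-0.83, SE 0.23, adjusted p = 0.0235) fell from day 0 to day 7. The call of Skil held in only 3 of 8 alternatives and was lost in DESeq2 (adjusted p = 0.0577) and limma (adjusted p = 0.104 on log2(TPM + 1)). Tob1, also of this list, was called in the day effect (edgeR adjusted p = 0.0299). Its change of 0.67 (SE 0.25) from day 0 to day 7 missed the threshold (adjusted p = 0.0842).

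Of 18 other secreted antagonists and modulators 9 were tested, 0 were called between the arms in either direction and 6 fell from day 0 to day 7. The log2 fold change was -3.84 (SE 0.33, adjusted p = 2.35e-05) for Fst, which encodes an activin and BMP binding protein, and -3.53 (SE 0.65, adjusted p = 0.00275) for Bmper. It was -4.39 (SE 0.57, adjusted p = 0.00027) for Tll1, which encodes a protease related to BMP1, -0.88 for Fstl1 and -0.97 for Nbl1, whose call was also lost in DESeq2 (adjusted p = 0.0834). Sostdc1, which was below the filter, was lower in OKS+FoxO6 on all 5 days, with 33.9 and 17.2 TPM in OKS+DR against 6.99 and 1.44 TPM on days 0 and 1.

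Of 12 further BMP target genes 4 were tested and 0 were called between the arms. Id4, an Id gene outside the members, was among these 4, with a shift of -0.34 (SE 0.23, adjusted p = 0.379). Runx2, an osteoblast factor, fell by 2.90 (SE 0.48, adjusted p = 0.00138) over the course, a call that was lost in limma on log2(TPM + 1) (adjusted p = 0.0922). Hey1, below the filter, was higher in OKS+FoxO6 on all 5 days, with 14.4, 6.70, 8.26, 7.11 and 3.31 TPM against 1.97, 1.12, 0, 3.09 and 1.80 TPM. Of 7 bHLH genes, the class of factors that Id proteins bind or act beside, 6 were tested. Twist1, a mesenchymal bHLH factor, was higher in OKS+FoxO6, with 319, 222, 198, 136 and 107 TPM against 204, 135, 73.1, 57.3 and 48.3 TPM in OKS+DR. Its shift was 0.99 (SE 0.16, adjusted p = 0.00223; 0.355 without a day term), and it fell by 1.78 (SE 0.25, adjusted p = 0.000454) from day 0 to day 7.

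Hes1, a bHLH repressor, was lower, with 10.98, 14, 8.23, 18.1 and 14.3 TPM in OKS+FoxO6 against 46.1, 27.1, 32.2, 43.5 and 43.4 TPM in OKS+DR, and its shift was -1.48 (SE 0.27, adjusted p = 0.0048). In TPM the arms of Hes1 did not overlap. In CPM they did, with 10.7 in OKS+DR on day 1 (16 counts) and 11.7 in OKS+FoxO6 on day 7 (18 counts). Tcf3, which encodes the E proteins E12 and E47, was lower by a smaller amount (-0.42, SE 0.11, adjusted p = 0.0324), a call that was lost without a day term (adjusted p = 0.555), with no filter on low counts (adjusted p = 0.0634) and without day 1, 3 or 5 (adjusted p between 0.0823 and 0.172), and rose by 1.24 (SE 0.18, adjusted p = 0.000574) over the course. Twist2 fell by 3.86 (SE 0.46, adjusted p = 0.000179).

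**Figure D4:**
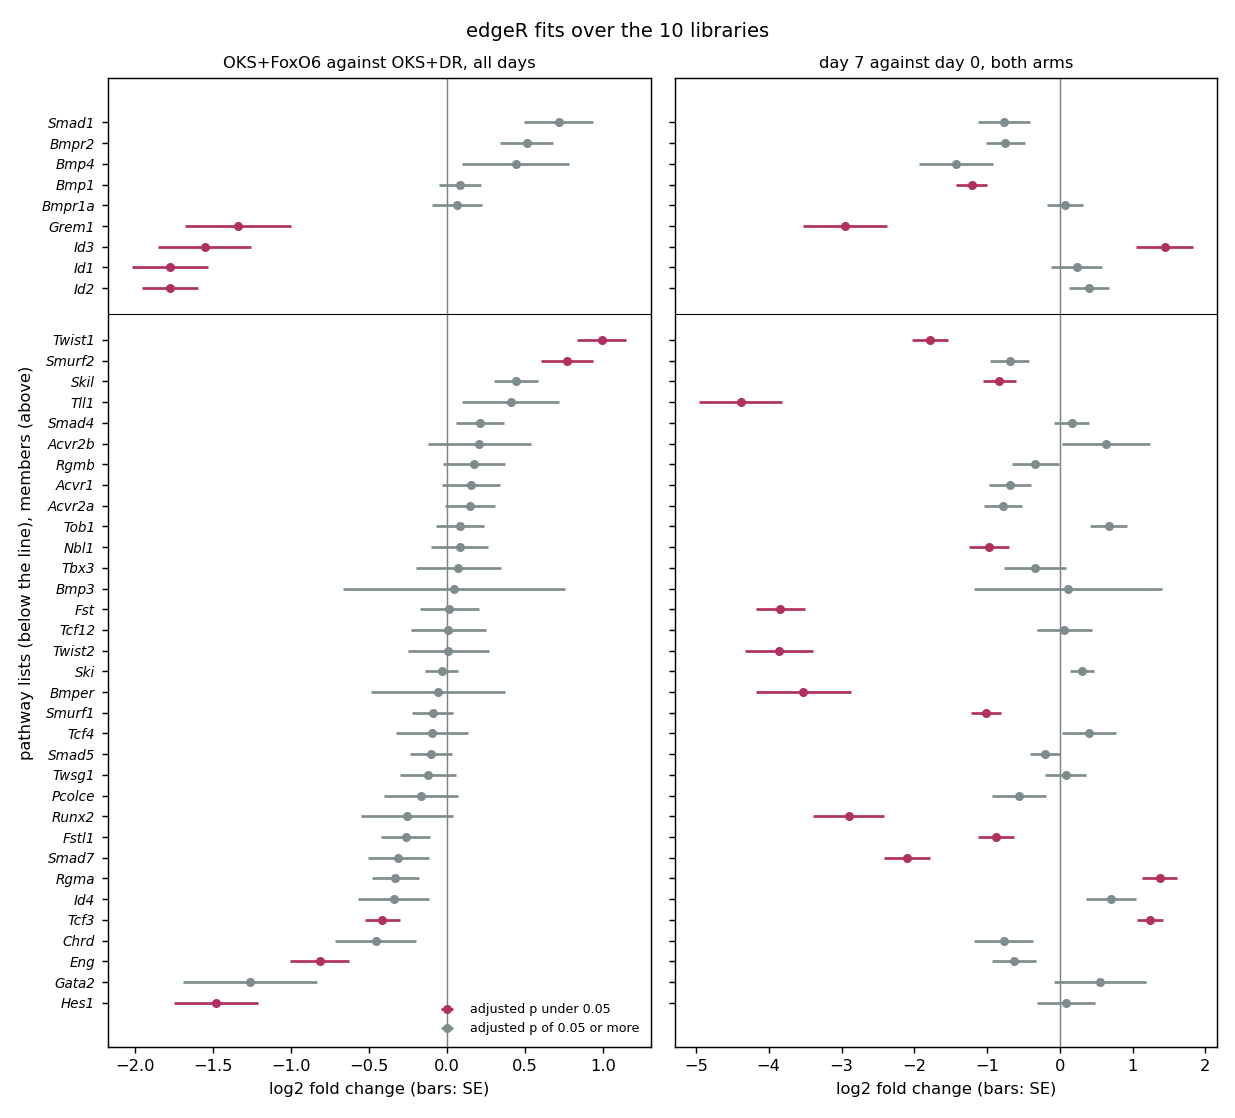
Log2 fold change (x axis) of the 9 members tested, above the line, and of tested pathway genes, below it, for OKS+FoxO6 against OKS+DR over all days (left) and for day 7 against day 0 over both arms (right), from edgeR over the 10 libraries. Points are estimates, bars are 1 SE, and magenta marks an adjusted p under 0.05. Id1, Id2, Id3 and Grem1 are the members in magenta on the left, all below 0.

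Markers of other cell types were measured beside the members. The summed level of 8 pluripotency markers was 5.55 TPM at day 0 and 316 TPM at day 7 in OKS+DR, and 0.71 and 52.0 TPM in OKS+FoxO6, where Lin28a was at 0 on all days, and none of the 8 passed the filter to be tested between the arms. The day 0 sums rest on 2 counts of Dppa5a in OKS+DR and 1 count of Esrrb in OKS+FoxO6. The sum of 6 epithelial markers reached 675 TPM at day 7 in OKS+DR and 149.5 TPM in OKS+FoxO6, and all 3 that were tested (Cdh1, Epcam and Krt8) were called lower in OKS+FoxO6, with the call of Epcam lost in DESeq2 (adjusted p = 0.184) and limma (adjusted p = 0.239 on log2(TPM + 1)). Without a day term all 3 of these calls were lost (edgeR adjusted p between 0.261 and 0.549). Of 8 fibroblast markers 1 was called higher (Pdgfra) and 1 lower (Col3a1), and each of these calls held in 7 of 13 alternatives, with Pdgfra lost without day 0, 3 or 5 (adjusted p between 0.0627 and 0.0961) and Col3a1 without day 1, 3 or 5 (adjusted p between 0.0532 and 0.105). The sum of 6 endothelial markers ranged from 20.9 to 56.5 TPM in OKS+DR and from 31.8 to 143 TPM in OKS+FoxO6, and both that were tested, Kdr and Tek, were called higher. These 2 made up most of the sum, the call of Kdr was lost in DESeq2 (adjusted p = 0.0884) and without day 3 or day 5 (adjusted p = 0.126 and 0.135), and Pecam1 stood at 5.73 TPM in OKS+DR and 0.76 TPM in OKS+FoxO6 at day 7. Without a day term the calls of Kdr and Tek were lost (edgeR adjusted p = 0.191 and 0.239). The sum of 6 macrophage markers ranged from 14.1 to 55.8 TPM and from 18.0 to 29.0 TPM, with 1 of them tested and 0 called, Fcgr1 at 0 in OKS+DR and, of the endothelial ones, Cldn5 at 0 in OKS+FoxO6. The part of these cell types in the differences of the Id genes, Grem1 and Eng was not tested.

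Over the 10 libraries Id1, Id2 and Id3 varied together, as a description in which the points share arm, day and depth. Pearson's r of log2(TPM + 1) was 0.877 for Id1 and Id2, 0.724 for Id1 and Id3 and 0.609 for Id2 and Id3. Between the Id genes and Smad1 or Bmpr2 r was negative, between -0.549 and -0.764. Among 9805 genes with a mean of at least 10 TPM, the genes most like Id1 were Dhcr7 (r = 0.964), Meg3 (0.936) and Crip1 (0.931), and those most like Id2 were Krt13 (0.968), Srebf2 (0.938) and Cd34 (0.931). The genes most like Id3 were Egfl6 (0.953), Kxd1 (0.948) and 2410002F23Rik (0.943). Grem1 varied most like Ilk (0.969), Tmem43 (0.955) and Dpysl3 (0.952).

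Of the other members, Bmpr2 varied most like Myo5a (0.971), Uhmk1 (0.967) and Wdr26 (0.966), Bmpr1a like Epc2 (0.965), Dido1 (0.948) and Rasal2 (0.947), and Smad1 like Pip5k1a (0.944), Fmnl3 (0.938) and Zfyve9 (0.936). Bmp1 varied most like Inf2 (0.976), Cep170b (0.976) and Rab32 (0.971), Bmp4 like Gchfr (0.95), Sqrdl (0.913) and Emc7 (0.907), and Smad6 like Htra2 (0.958), Mocs2 (0.934) and Prmt3 (0.934). No Id gene was among the 3 nearest genes of another member.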

How the data were processed

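RNA-seq was measured in MEFs of 2 arms at 5 days, with 1 library per arm and day, and samples were grouped by their titles. RSEM with bowtie2 was run by the authors against the GENCODE M13 transcriptome (mm10). The deposited expected counts are not normalized, and the deposited TPM are RSEM's own. Effective transcript lengths, in nucleotides, come from the same deposited tables. The labels name a VAHTS mRNA-seq kit and the methods a TruSeq kit, and strand is not given in the sources used here.

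The expected counts were rounded and fitted with edgeR 4.0.16 (R 4.3.3) after filterByExpr (minimum count 10), with TMM normalization, arm and day as factors and a threshold of 0.05 on the Benjamini-Hochberg adjusted p. The error has 4 residual degrees of freedom. Arm by day used the day as a number. Values per day are TPM, log2(TPM + 1) with a pseudocount of 1, and CPM ratios on TMM-scaled totals with exact 95% intervals, which cover counting error only. A library with 0 counts was set to a floor of 3 counts for a bound. Python 3.11.15 with pandas 2.3.3 and scipy 1.17.1 was used. The fits were tested on simulated data.

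The alternatives were other size factors, no filter, DESeq2 1.42.0, limma 3.58.1 on log2(TPM + 1) and log2(TPM + 0.1), each day left out, no day term, and days 0 and 7 alone. An offset for transcript length, leaving out days 0 and 7 together, and leaving out the OKS+DR day 0 and OKS+FoxO6 day 7 libraries for day 7 against day 0 were chosen after seeing the data. The members, the lists and the tests were chosen with earlier results of these data known. All 10 members are named. Genes of the lists are named where the arm shift, the day effect or the trend called them or where all 5 days lay on one side with at least 1 past 2-fold. Bmp3, the further ligand tested, Fstl1, called at day 7 against day 0 alone, and Id4 were named after their values were seen. So were the cell type markers that are named. The 3 genes with the highest correlation to each member are named too. A result of the lists is counted but not reported here.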

Additional observations from a re-analysis of the deposited data

Results flagged for a closer look

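For 3 genes of the pathway lists, and for no member, the difference between the arms changed along the days by a test of that change itself (edgeR, product of arm and day). Pcolce, which encodes an enhancer of the BMP1 procollagen protease, changed by 0.2472 log2 per day in OKS+FoxO6 relative to OKS+DR (SE 0.0465, adjusted p = 0.0191), from 555 to 235 TPM between days 0 and 7 in OKS+DR and from 419 to 401 TPM in OKS+FoxO6. The E protein genes Tcf4 and Tcf12, whose products pair with other bHLH factors and are bound by Id proteins, changed by -0.2545 (SE 0.0440, adjusted p = 0.0130) and -0.2634 (SE 0.0440, adjusted p = 0.0108) log2 per day. Tcf4 had 34.9 TPM at day 0 and 137 TPM at day 7 in OKS+DR, and 103 and 31.8 TPM in OKS+FoxO6. Tcf12 had 78.8 and 203 TPM in OKS+DR and 188 and 54.4 TPM in OKS+FoxO6. The low values of both genes come from the pair of libraries that stood apart in their trend with transcript length. With the offset for length the changes were -0.24 (adjusted p = 0.00674) for Tcf4, -0.24 (adjusted p = 0.00621) for Tcf12 and 0.21 (adjusted p = 0.0274) for Pcolce. Without day 7 the 3 calls were lost (adjusted p = 0.209, 0.192 and 0.309), and those of Tcf4 and Tcf12 also without day 0 (adjusted p = 0.0947 and 0.0834). The call of Pcolce was lost without day 1 too (adjusted p = 0.0710), and limma on log2(TPM + 1) called none of the 3 (adjusted p between 0.132 and 0.217).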

How the results depend on the processing

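Id1 and Id2 were called lower in OKS+FoxO6 under all 13 alternatives of the arm shift, with shifts from -2.05 to -1.58 and from -1.93 to -1.63, and Id3 under 10 of the 11 that could test it, the exception being no day term (edgeR adjusted p = 0.373). The members called in the arm shift were 2 with no day term, 6 with no filter and 6 with the offset for length, against 4. They were between 3 and 5 when a day was left out. The day effect called 7 members with no filter on low counts, against 3. Day 7 against day 0 called 6 members with no filter, 5 with the offset for length and 1 without the OKS+DR day 0 and OKS+FoxO6 day 7 libraries, against 3. The trend called 1 member, Grem1, with no filter, against 0. Without those libraries the day 7 to day 0 change of Id1 turned to -0.33. Shifts near 0 changed sign, for Bmpr1a to -0.0065 without day 0 and -0.0312 without day 1, and so did trends far from the threshold, for Bmp4 to -0.0330 without day 7 and for Id1 to 0.0388 without day 0. The cause was not tested. Over all genes the arm shift called 1544 genes, against 168 with no day term, 824 and 722 in limma with pseudocounts of 1 and 0.1, 705 without day 3 and 663 without day 5. The trend called 217 genes, against 628 with no filter, 126 in DESeq2, 19 and 13 in limma, 114 without day 0 and 80 without day 7, the day effect 2152 against 3816 with no filter, and day 7 against day 0 2332 against 1093 without the OKS+DR day 0 and OKS+FoxO6 day 7 libraries. Of the other results for single genes, 693 counted as kept, 86 fell below the threshold and 13 passed it. For a fitted change, kept means the same direction and side of the threshold. For a difference on a single day it means only a value within the counting interval, which may lie across the 2-fold line. Depth limits Smad6, Bmp4 and Id3 on days 1 and 3. The arms are compared within days, since day is a term of the model.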
